A study of Mus musculus with 21 samples.

Results

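Chemokines are the secreted proteins that guide leukocytes through tissue, and chemokine receptors are their G protein-coupled partners on the target cell. The genes described here are every gene name on the array that begins with Ccl, Cxcl, Ccr or Cxcr followed by a digit, together with Cx3cl1, Cx3cr1, Xcl1 and Xcr1. They number 54 of 27373 gene names, 35 of them ligands and 19 receptors, read by 70 of 41174 probes. The choice used names alone and no measured value. They were measured in skin, liver and epididymal fat of male mice in which JNK1, the stress-activated kinase encoded by Mapk8, had been knocked out (KO) and of wild-type (WT) mice. Both genotypes were C57Bl6/J animals that ate a high fat diet between 5 and 44 weeks of age and were 45 weeks old, so that no group on another diet is compared. There were 4 KO and 3 WT skin arrays, 3 KO and 3 WT liver arrays, and 4 KO and 4 WT fat arrays, 21 in all. The labels do not say that each array came from a different mouse, so the p-values measure the spread between these samples. They also do not say how JNK1 was removed or in which cells.

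Chemokine ligands are commonly grouped by the spacing of their first cysteines into CC, CXC, C and CX3C families, and one receptor often answers to several ligands. Some ligands, such as Cxcl12 and Ccl21a, are made constantly and place cells within resting tissue. Others, such as Ccl2, Cxcl1 and Cxcl10, are induced by inflammatory signals acting through NF-kB, AP-1 and interferon-regulated factors. JNK phosphorylates c-Jun, a subunit of AP-1. In obese fat, Ccl2 and its receptor Ccr2 are known for drawing monocytes into the tissue, and in skin Ccl27a is a product of keratinocytes that attracts T cells bearing Ccr10. Whole tissue was assayed, so fewer cells of a type and less RNA per cell cannot be told apart in any of the values below.

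Every level below is a log2 signal relative to the 75th percentile of all probes on the same array, and every difference is in log2 units. A level of one gene is not set against that of another, since probes differ in brightness. The probe of Mapk8 itself read -3.66 to -2.98 in KO fat and -1.0 to -0.79 in WT fat, a difference of -2.38 ± 0.18 (SE; adjusted p = 0.0167). In liver it read -4.68 to -3.22 in KO and -1.98 to -1.61 in WT (difference -2.37, adjusted p = 0.216), and in skin -5.24 to -4.17 in KO and -4.14 to -2.16 in WT, where it was above background on 2 arrays and was not tested. The KO and WT ranges of Mapk8 did not overlap in any of the 3 tissues. Between 38.9% and 57.2% of probes were well above background on the 20 arrays used. Markers of each labelled tissue were present on its arrays: all 6 keratinocyte markers were above background on every skin array, all 5 hepatocyte markers found on every liver array, and all 6 adipocyte markers on every fat array used and on every skin array too. Every skin array was also above background for 4 hepatocyte markers and all 6 skeletal muscle markers. In WT skin the log2 summed levels were 5.82 to 6.76 for hepatocyte markers, 11.24 to 11.59 for muscle and 11.10 to 11.64 for keratinocyte markers. Hepatocyte markers summed to 10.14 to 10.92 in WT liver. The scanner file of WT fat replicate 2 correlated at 0.863 to 0.914 with skin arrays and at 0.725 to 0.766 with fat arrays, and at 0.779 with its own column of the authors' value table, against at least 0.972 for the other 20 arrays. It goes against its label and entered no test, and fat therefore has 3 WT arrays below. Its value-table column, which correlated at 0.953 to 0.980 with the other fat columns, is given beside the scanner values of fat as the value-table column of WT fat 2, scaled to its own 75th percentile. Over 36 members and the other 7 fat arrays the value table read a median of 0.13 above the scanner scale, with 90% of differences between -0.27 and 0.89, so that column is a guide and not a further replicate.

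Of the 54 genes, 18 were well above background on all 20 arrays. They were the ligands Ccl2, Ccl5, Ccl6, Ccl7, Ccl8, Ccl9, Ccl19, Ccl21a, Ccl24, Ccl25, Ccl27a, Cx3cl1, Cxcl9, Cxcl12, Cxcl14 and Cxcl16 and the receptors Cxcr3 and Cxcr6. Another 10 were above background on none: Ccl1, Ccl22, Ccr1l1, Ccr8, Ccr10, Cxcl2, Cxcl3, Cxcl15, Cxcl17 and Cxcr1. Ccr10, the receptor of Ccl27a, was thus not detected in skin, although its ligand Ccl27a was on every skin array. Testing within a tissue required a probe flagged well above background on 3 or more of its arrays, which 28 genes met in skin, 31 in liver and 36 in fat. The 15 genes that met it in no tissue were 7 ligands and 8 receptors, among them Ccr1, Ccr2, Ccr4 and Cxcr2. Of the 35 ligands 16 were on every array, and of the 19 receptors 2.

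**Figure D1:**
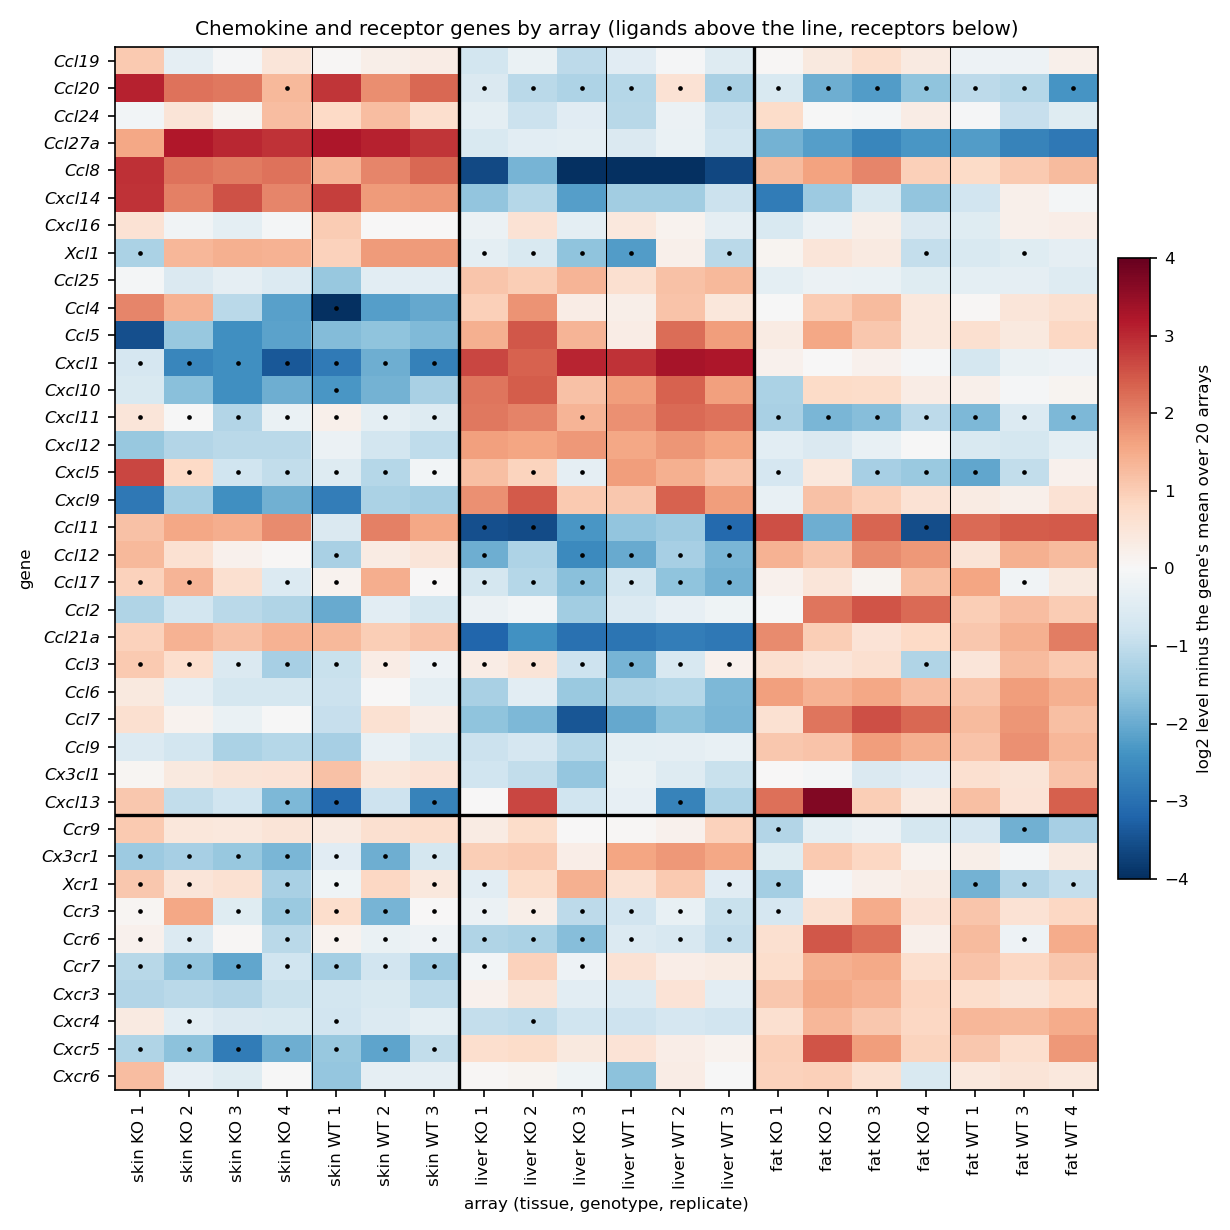
Levels of tested chemokine and receptor genes on each of the 20 arrays, as the log2 level minus the gene's mean over the 20 arrays (colour), with genes in rows, arrays in columns and KO before WT within each tissue. Black dots mark values not well above background. Ccl27a is brightest in skin and Cxcl1 and Cxcl11 in liver. The row of Ccl11 shows a pair of KO fat arrays far below the other fat arrays and the skin arrays, within the range of the liver arrays.

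Most tested chemokine and receptor genes differed between tissues. Among WT arrays, 24 of 37 tested genes differed between skin and fat at an adjusted p below 0.05 in limma, 7 higher and 17 lower in skin. That is 64.9% of them, against 57.4% of all 16089 gene names tested in the same fit. For skin and liver the count was 26 of 35, 12 higher and 14 lower in skin (74.3%, against 64% of all genes, 29.5% higher and 34.5% lower). For liver and fat it was 27 of 38, 11 higher and 16 lower in liver (71.1%, against 61.3% of all genes, 30% higher and 31.3% lower). The counts of genes that differ are therefore not far from those of the array as a whole. The direction between skin and fat was less even than for all genes: 45.9% of the chemokine genes were called lower in skin, where 30.8% of all genes were, and 18.9% were called higher, where 26.6% of all were. That split depended on the background correction: with normexp it was 8 higher and 12 lower for skin and fat, and 12 higher and 9 lower for skin and liver. The median difference of skin minus fat was -1.22 over the 37 genes and -0.16 over all genes. For skin minus liver it was -0.30 against -0.14, and for liver minus fat -0.83 against -0.045. Receptors counted alone gave 2 higher and 6 lower in skin than in fat among 11 tested, 0 higher and 5 lower in skin than in liver among 9, and 3 higher and 4 lower in liver than in fat among 11.

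The genes highest in WT skin were led by Ccl27a, Cxcl14 and Ccl20. Ccl27a, the keratinocyte ligand of Ccr10, read 5.80, 5.63 and 5.42 in WT skin, 1.97, 2.28 and 1.77 in WT liver and 0.31, -0.12 and -0.30 in WT fat. Every skin array lay above every liver array, and every liver array above every fat array. Skin exceeded fat by 5.65 ± 0.32 (SE; adjusted p = 4.41e-10), a 50.4-fold higher signal, and exceeded liver by 3.61 ± 0.32 (SE; adjusted p = 3.51e-08), while liver exceeded fat by 2.04 ± 0.32 (SE; adjusted p = 3.48e-05). The probe lies at chr4:41716763-41716822 (mm9, the build of the array's annotation), where near-identical gene copies may share it. Cxcl14, a chemokine of epithelia, read 5.20, 4.15 and 4.16 in WT skin, 1.04, 1.05 and 1.58 in WT liver and 1.67, 2.62 and 2.37 in WT fat. Skin lay above both other tissues without overlap, by 2.29 ± 0.46 (SE; adjusted p = 0.000457) over fat and 3.28 ± 0.46 (SE; adjusted p = 6.89e-06) over liver. Ccl20 attracts cells that bear Ccr6, such as immature dendritic cells and Th17 cells, and it read -0.98, -1.95 and -1.54 in WT skin. No WT liver or WT fat array was above background for it, so the fold is a lower bound.

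Such a bound sets the mean of the brighter group against, on each array of the dim group, the higher of the gene's own signal and the lowest signal well above background. On that basis Ccl20 was at least 3.85-fold higher in WT skin than in WT liver (adjusted p = 0.00012) and at least 5.99-fold higher than in WT fat (adjusted p = 1.39e-05). Its measured means were -1.49 ± 0.49 in WT skin, -4.44 ± 1.03 in WT liver and -5.34 ± 0.73 in WT fat (SD, n = 3 each). The receptor Ccr6 was above background on no WT skin array. Ccl24, an eotaxin that attracts eosinophils through Ccr3, read 2.42, 2.85 and 2.31 in WT skin, 0.51, 1.39 and 0.77 in WT liver and 1.59, 0.70 and 1.13 in WT fat. Its WT skin values lay above all WT liver and fat values, by 1.64 ± 0.34 (SE; adjusted p = 0.000415) over liver and 1.39 ± 0.34 (SE; adjusted p = 0.00226) over fat. Ccr9, the receptor of Ccl25 that homes lymphocytes to the gut, read -2.43, -2.14 and -2.10 in WT skin, -2.74, -2.62 and -1.86 in WT liver and -3.46, -4.70 and -4.13 in WT fat. Skin and liver overlapped, and both lay above fat, skin by 1.87 ± 0.32 (SE; adjusted p = 0.000127) and liver by 1.69 ± 0.32 (SE; adjusted p = 0.000233).

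The promoters of the skin ligands Ccl27a and Ccl20 are printed. Among the genes higher in WT skin than in WT fat these had the smallest adjusted p in limma. Against liver, Cxcl14 had a smaller adjusted p than Ccl20. AP-1, to which c-Jun belongs, and NF-kB are known regulators of chemokine genes. Sequences are the 250 bases before the annotated start in RefSeq on GRCm38.p6, 5′ to 3′ on the gene's strand, Ccl27a from chr4:41770213-41770462 (minus strand) and Ccl20 from chr1:83116516-83116765 (plus strand). Capitals mark the searched letters: TGANTCA for AP-1, GAAANNGAA for the core of the interferon-stimulated response element (ISRE), and the usual NF-kB decamer, on either strand. Overlapping matches run together in 1 capital stretch.
Ccl27a: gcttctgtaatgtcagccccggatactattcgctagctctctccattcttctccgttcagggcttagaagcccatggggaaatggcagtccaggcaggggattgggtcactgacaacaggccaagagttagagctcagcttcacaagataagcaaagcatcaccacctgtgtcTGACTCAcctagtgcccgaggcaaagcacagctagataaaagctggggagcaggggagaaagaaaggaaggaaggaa
Ccl20: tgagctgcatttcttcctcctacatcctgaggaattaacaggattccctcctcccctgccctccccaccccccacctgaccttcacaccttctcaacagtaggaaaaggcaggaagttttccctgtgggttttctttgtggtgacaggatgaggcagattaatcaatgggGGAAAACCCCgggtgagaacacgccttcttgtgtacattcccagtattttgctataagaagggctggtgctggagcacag
RefSeq lists 3 starts for Ccl27a, and the window shown is the one that holds an AP-1 match, whose first base lies at -77 from the start. Ccl20 holds 1 NF-kB match, at -80. The window of the skin ligand Cxcl14, not printed, holds an ISRE match at -172 and no AP-1 or NF-kB letters. Of the 54 genes, 40 were found in the RefSeq promoter table with 44 windows. An AP-1 match occurred in 5 of the 44 (11.4%) and in 6.75% of all 32851 windows of the table, an NF-kB match in 10 (22.7%) and 7.25%, and an ISRE match in 8 (18.2%) and 7.13%. A longer ISRE search, with 1 more A, found 3 (6.82%) and 2.98%, and the shorter form was taken up after it. A match describes letters in the window and is not a shown binding site.

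Liver was the tissue of high Cxcl12, Cxcl1, Ccl25 and the Cxcr3 ligands. Cxcl12, which holds haematopoietic cells in place through Cxcr4, read 4.70, 4.19 and 3.91 in WT skin, 6.48, 6.69 and 6.52 in WT liver and 4.34, 4.25 and 4.54 in WT fat. The liver arrays lay close together and above all others, with skin minus liver at -2.29 ± 0.20 (SE; adjusted p = 2.42e-08) and liver minus fat at 2.19 ± 0.20 (SE; adjusted p = 5.07e-08). Skin and fat overlapped in Cxcl12. Cxcl1, which attracts neutrophils through Cxcr2, was above background on no WT skin array and read 1.17, 1.57 and 1.53 in WT liver and -2.42, -1.98 and -1.90 in WT fat. WT skin was at least 20.8-fold lower than WT liver (adjusted p = 8.64e-09), and liver exceeded fat by 3.53 ± 0.45 (SE; adjusted p = 3.19e-06). Its measured means were -4.21 ± 0.47 in WT skin, 1.42 ± 0.22 in WT liver and -2.10 ± 0.28 in WT fat (SD, n = 3 each). Ccl25, the Ccr9 ligand known from thymus and small intestine, read -1.93, -0.85 and -0.85 in WT skin, 0.23, 0.76 and 0.87 in WT liver and -0.80, -0.79 and -0.93 in WT fat. All liver values were the higher ones, with skin minus liver at -1.83 ± 0.25 (SE; adjusted p = 7.06e-06) and liver minus fat at 1.46 ± 0.25 (SE; adjusted p = 9.15e-05).

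The interferon-induced ligands of Cxcr3, the receptor of Th1 and cytotoxic T cells, were highest in liver in the WT arrays. Cxcl9 read -1.07, 0.45 and 0.35 in WT skin, 2.78, 4.07 and 3.38 in WT liver and 2.04, 1.92 and 2.29 in WT fat. Cxcl10 read -1.95, -1.52 and -0.92 in WT skin, 2.06, 2.74 and 2.03 in WT liver and 0.60, 0.33 and 0.50 in WT fat. Both of these were highest in liver and lowest in skin, with no overlap between any of the 3 tissues. Skin minus liver was -3.50 ± 0.49 (SE; adjusted p = 8.16e-06) for Cxcl9 and -3.73 ± 0.51 (SE; adjusted p = 5.99e-06) for Cxcl10. Liver minus fat was 1.33 ± 0.49 (SE; adjusted p = 0.0272) for Cxcl9 and 1.80 ± 0.51 (SE; adjusted p = 0.00583) for Cxcl10, and skin minus fat -2.17 and -1.94 (adjusted p = 0.00134 and 0.00407). The liver and fat difference of Cxcl9 did not pass with the authors' value table or with quantile normalization. Cxcl11, of which C57BL/6 mice are known to make no functional protein, was above background on all 3 WT liver arrays (-2.53, -2.12 and -2.19) and on no WT skin or fat array. It was at least 1.59-fold lower in WT skin than in WT liver (adjusted p = 5.32e-05), a difference that did not pass with normexp background correction, and at least 3.46-fold higher in WT liver than in WT fat (adjusted p = 6.35e-07). Its measured means were -4.61 ± 0.38 in WT skin, -2.28 ± 0.22 in WT liver and -5.76 ± 0.72 in WT fat (SD, n = 3 each). The receptor Cxcr3 had another order: it read -0.94, -0.83 and -1.23 in WT skin, -0.75, 0.33 and -0.64 in WT liver and 0.48, 0.29 and 0.60 in WT fat, lowest in skin. Skin minus fat was -1.46 ± 0.27 (SE; adjusted p = 0.000276) and liver minus fat -0.81 ± 0.27 (SE; adjusted p = 0.0169).

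Of the 5 liver-high ligands in the RefSeq promoter table, the windows of 3 are shown because they hold searched letters, and the Cxcl12 window and both Ccl25 windows hold none of them. Those shown are Cxcl9 from chr5:92328080-92328329 (minus strand), Cxcl10 from chr5:92348890-92349139 (minus strand) and Cxcl1 from chr5:90890995-90891244 (plus strand), all on GRCm38.p6 and marked as above.
Cxcl9: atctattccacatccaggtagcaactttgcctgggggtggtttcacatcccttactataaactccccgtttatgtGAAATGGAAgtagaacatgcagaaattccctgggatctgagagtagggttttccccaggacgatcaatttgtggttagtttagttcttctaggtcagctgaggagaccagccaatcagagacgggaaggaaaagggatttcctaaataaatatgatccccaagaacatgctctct
Cxcl10: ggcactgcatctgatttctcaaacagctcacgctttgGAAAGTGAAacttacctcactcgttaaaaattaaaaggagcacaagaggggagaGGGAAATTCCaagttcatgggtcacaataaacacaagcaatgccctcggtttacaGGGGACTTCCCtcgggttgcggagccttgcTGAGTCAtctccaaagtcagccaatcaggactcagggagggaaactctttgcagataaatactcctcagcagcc
Cxcl1: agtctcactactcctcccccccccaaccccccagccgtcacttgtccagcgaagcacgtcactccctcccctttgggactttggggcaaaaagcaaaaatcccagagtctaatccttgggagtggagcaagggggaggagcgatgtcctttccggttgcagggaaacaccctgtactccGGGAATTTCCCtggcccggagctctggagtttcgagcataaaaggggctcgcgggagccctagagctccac
The Cxcl9 window holds 1 ISRE match, at -175, and no AP-1 or NF-kB letters. The Cxcl10 window holds an ISRE match at -213, NF-kB matches in 2 stretches and an AP-1 match at -74. The Cxcl1 window holds NF-kB matches within 1 stretch and no ISRE or AP-1 letters.

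Fat had high levels of Ccl21a, Ccl8, Ccl6 and Ccl9. Ccl21a, made by lymphatic endothelium and lymph node stroma for cells that bear Ccr7, read 3.97, 3.67 and 3.83 in WT skin, -0.24, -0.086 and -0.19 in WT liver and 3.76, 4.08 and 4.72 in WT fat. Skin and fat overlapped and both were far above liver, skin by 3.99 ± 0.30 (SE; adjusted p = 4.10e-09) and fat with liver minus fat at -4.36 ± 0.30 (SE; adjusted p = 1.70e-09). Near-identical copies of Ccl21a may share its probe. Lymphatic markers, all 4 found, had log2 summed levels of -0.52 to 0.18 in WT skin, 1.27 to 2.03 in WT liver and -0.079 to 0.90 in WT fat, with Prox1 and Flt4 above background on no WT skin array and Pdpn on no WT liver array. Their part in the Ccl21a values was not tested. Ccl8, a monocyte chemoattractant that in mice acts through Ccr8, read 4.92, 5.50 and 5.86 in WT skin, -1.28, -0.57 and -0.097 in WT liver and 4.33, 4.61 and 4.83 in WT fat. Skin minus liver was 6.07 ± 0.63 (SE; adjusted p = 2.28e-07) and liver minus fat -5.24 ± 0.63 (SE; adjusted p = 1.60e-06). Skin lay above fat without overlap, but skin minus fat was 0.83 ± 0.63 (SE; adjusted p = 0.273) and did not pass. Ccr8 itself was above background on none of the 20 arrays.

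Ccl6 and Ccl9, rodent ligands of Ccr1 made by myeloid cells, were highest in fat. Ccl6 read 4.10, 4.99 and 4.58 in WT skin, 3.78, 3.84 and 3.16 in WT liver and 6.07, 6.64 and 6.38 in WT fat. Ccl9 read 3.03, 4.06 and 3.73 in WT skin, 3.97, 4.0 and 4.06 in WT liver and 5.48, 6.18 and 5.69 in WT fat. In both genes each fat array lay above every skin and liver array. Skin minus fat was -1.81 ± 0.33 (SE; adjusted p = 0.000191) for Ccl6 and -2.18 ± 0.26 (SE; adjusted p = 3.40e-06) for Ccl9, and liver minus fat -2.77 ± 0.33 (SE; adjusted p = 1.18e-06) and -1.77 ± 0.26 (SE; adjusted p = 1.77e-05). Macrophage markers summed to 6.88 to 7.90 in WT skin, 7.61 to 8.24 in WT liver and 8.81 to 9.34 in WT fat, and their part in the Ccl6 and Ccl9 differences was not tested. Ccr1 was above background on 1 of the 20 arrays. Among the ligands high in fat, the windows of Ccl21a, Ccl8 and Ccl6 hold none of the searched letters. The Ccl9 window, from chr11:83578637-83578886 (minus strand) on GRCm38.p6, is shown because it holds both an AP-1 match, at -53, and an NF-kB match, at -35.
Ccl9: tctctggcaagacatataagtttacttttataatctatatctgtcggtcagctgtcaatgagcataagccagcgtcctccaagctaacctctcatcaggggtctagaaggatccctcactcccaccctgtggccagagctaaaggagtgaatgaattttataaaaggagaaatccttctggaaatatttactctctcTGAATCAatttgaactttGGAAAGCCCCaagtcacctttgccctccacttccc

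Among receptors, Cxcr4 was highest in fat, and Ccr7 and Cxcr5 were higher there than in skin. Cxcr4, the receptor of Cxcl12, read -2.73, -2.52 and -2.36 in WT skin, -2.79, -2.66 and -2.73 in WT liver and -0.64, -0.68 and -0.50 in WT fat. The fat arrays stood apart, with skin minus fat at -1.93 ± 0.23 (SE; adjusted p = 2.75e-06) and liver minus fat at -2.12 ± 0.23 (SE; adjusted p = 4.32e-07). In WT tissues Cxcl12 was thus highest in liver and its receptor in fat. Ccr7, which leads dendritic and naive T cells to lymph nodes, and Cxcr5, which leads B cells to follicles, were above background on no WT skin array. Against WT fat, WT skin was at least 1.62-fold lower in Ccr7 (adjusted p = 4.68e-05) and at least 2.42-fold lower in Cxcr5 (adjusted p = 6.10e-05). The measured means of Ccr7 were -4.46 ± 0.38 in WT skin and -2.26 ± 0.16 in WT fat, and those of Cxcr5 -4.38 ± 0.56 in WT skin and -1.68 ± 0.53 in WT fat (SD, n = 3 each). These dim receptors depended on the background correction: with normexp the skin minus fat difference was 0.0092 for Ccr7 and -0.37 for Cxcr5 (adjusted p = 0.266). B cell markers moved the same way: of 6 found, 5 were above background on no WT skin array and 4 on every WT fat array, with log2 summed levels of -0.94 to -0.58 in WT skin and 2.35 to 3.0 in WT fat. Their part in the Cxcr5 difference was not tested.

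**Figure D2:**
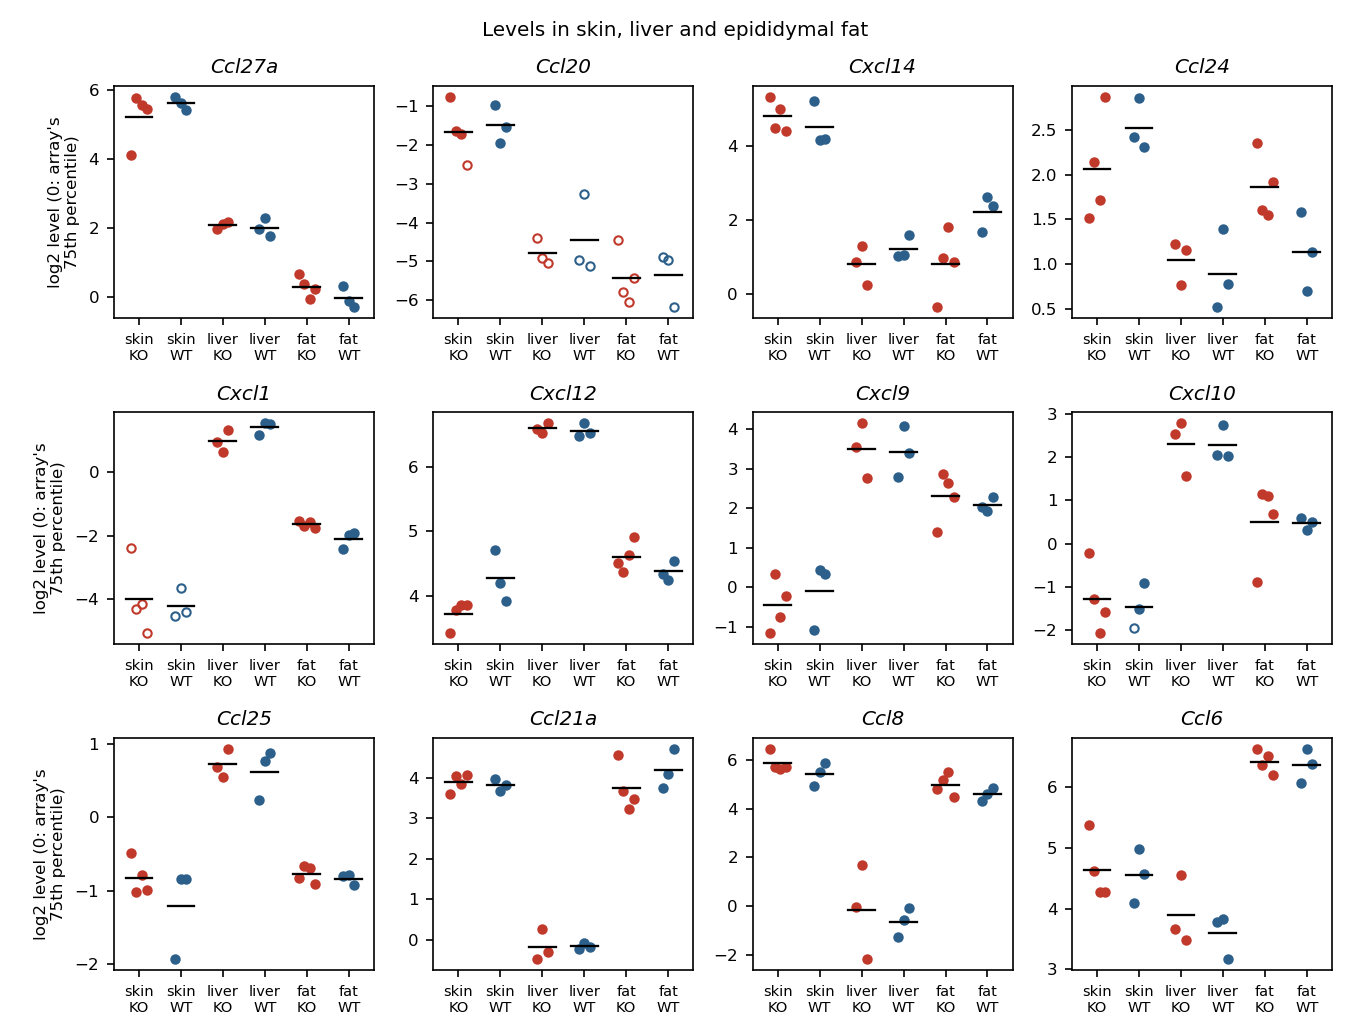
Levels of 12 ligands named for the tissue contrasts, as log2 signal relative to the array's 75th percentile, on each KO and WT array of skin, liver and fat, with KO left of WT and a line at each group's mean. Open symbols are values not well above background. Ccl27a, Cxcl14 and Ccl20 sit highest in skin, Cxcl12, Cxcl1 and Ccl25 in liver, and Ccl6 in fat.

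Many chemokine genes lie side by side, and some neighbours had the same order of tissues while others did not. By mm9 probe positions with gaps of at most 500 kb, 30 of the 54 genes fell into 6 clusters. In the monocyte chemokine cluster of chromosome 11, at chr11:81850650-81990395 with Ccl2, Ccl7, Ccl11, Ccl12, Ccl8 and Ccl1, all 5 tested genes were lower in WT liver than in WT fat (31.3% of all genes) and 4 of 5 were higher in WT skin than in WT liver (29.5% of all genes). The inflammatory cluster at chr11:83339296-83478111, with Ccl5, Ccl9, Ccl6, Ccl3 and Ccl4, had 4 of 5 tested genes lower in skin than in fat (30.8% of all genes) and 0 higher, but between skin and liver 1 of 4 was higher in skin and 2 were lower. In the Cxcl9, Cxcl10 and Cxcl11 cluster, at chr5:92752191-92790274, all 3 were higher in liver than in fat (30% of all genes). The neutrophil chemokine cluster at chr5:91190205-91334593 was mostly dark: Cxcl2, Cxcl3 and Cxcl15 were on no array, and the 2 tested genes, Cxcl1 and Cxcl5, were both higher in liver than in fat. In the receptor cluster at chr9:123690334-124041306, of 8 genes, 5 were tested between liver and fat, of which 2 were higher in liver and 1 lower. Genes of a cluster are related by descent and are not independent of each other.

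The KO arrays, which did not enter the WT contrasts, gave nearly the same tissue pattern. Among KO arrays 23 genes differed between skin and fat (against 61.6% of all genes), 26 between skin and liver (64.6%) and 25 between liver and fat (65.4%). Of these, 20, 24 and 22 were also called in WT, each with the same sign. For skin and fat the shared genes were 83.3% of the WT calls and 87.0% of the KO calls, for skin and liver 92.3% of each, and for liver and fat 81.5% of the WT and 88% of the KO calls. The overlap over all genes was not computed, and 57.4% to 65.4% of all genes were called in each contrast. These shares are therefore not shown to be particular to chemokine genes. The KO contrasts shared 1 fit and so 1 estimate of spread with the WT contrasts. A gene called in 1 genotype and not in the other is not shown to differ between them, and that difference was tested separately, as given further on. Arrays of the same slide gave the same signs: all 24, 26 and 27 WT calls kept their sign within slides 3 and 4, and 22 of 23 KO calls between skin and fat within slide 2, Cxcl10 being the exception. Within slide 6 all 26 KO calls between skin and liver kept their sign, and within slide 1 all 25 between liver and fat. The arrays of these slides are among those that gave the calls. Their signs were thus largely set beforehand and do not test for a slide effect.

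In fat, the comparison asks what loss of JNK1 did to the chemokine genes of a tissue in which obesity is known to raise Ccl2 and macrophage number. No chemokine or receptor gene passed the test. At an adjusted p below 0.05 limma called 0 of 36 genes, where it called 0.0131% of all 15247 gene names, and the authors' value table, which includes WT fat 2, also gave 0. Before adjustment 6 of 36 had p below 0.05 (16.7%, against 7.93% of all genes). Groups that did not overlap occurred in 2 of 36 genes higher in KO (6.63% of all genes) and in 1 lower (2.9%). The sign was positive in 25 of 36 genes, or 69.4%, as it was in 62.3% of all genes, and the medians were 0.23 and 0.076. A difference that missed the threshold is not shown to be absent.

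The 2 lower ligands with the smallest p were Cx3cl1 and Cxcl14. Cx3cl1, fractalkine, is a membrane-bound ligand of endothelium and other cells that binds Cx3cr1 on monocytes and macrophages. Its probe, at chr8:97306185-97306244 on mm9, read 0.60, 0.50, -0.00075 and 0.12 in KO fat, against 1.22, 1.08 and 1.71 in WT fat. Every KO array lay below every WT array, and the value-table column of WT fat 2 read 1.6. The difference was -1.03 ± 0.22 (SE; adjusted p = 0.435), with an unadjusted p of 0.00202, and in the value table with 4 arrays per group it was -1.20 (adjusted p = 0.248). Within slide 3, the 1 slide that held both genotypes of fat, with 1 array of each, KO minus WT was -1.21. Leaving out single fat arrays gave -1.16 to -0.85. A second probe for Cx3cl1, above background on no fat array and not matched to RefSeq, gave 0.39, and the mean of both probes -0.32.

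Cxcl14, whose probe lies at chr13:56390078-56390137 on mm9, read -0.35, 0.97, 1.82 and 0.87 in KO fat, against 1.67, 2.62 and 2.37 in WT fat and 2.96 in the value-table column of WT fat 2. The third KO array overlapped the WT arrays and the first was lowest. The difference was -1.39 ± 0.49 (SE; adjusted p = 0.563), -1.39 within slide 3, and -1.54 (adjusted p = 0.281) in the value table. Cxcr4 read -1.34, -0.64, -0.88 and -1.15 in KO fat and -0.64, -0.68 and -0.50 in WT fat, with a difference of -0.40 ± 0.19 (SE; adjusted p = 0.664). A second Cxcr4 probe, above background on all 7 fat arrays, gave -0.044, and the mean of both probes -0.22. By the first probe KO array 2 lay within the WT range and the other 3 lay below it. Ccl11, eotaxin, which draws eosinophils through Ccr3, read 1.36, -3.19, 1.1 and -4.78 in KO fat, against 1.06, 1.21 and 1.23 in WT fat and 1.09 in the value-table column of WT fat 2. KO arrays 2 and 4 were far below all other fat arrays, and KO array 4 was not above background, whereas KO arrays 1 and 3 were at the WT level. The difference of -2.54 ± 1.5 (SE; adjusted p = 0.727) therefore had the widest error of the 8 genes named in fat, and leaving out single arrays moved it over -3.46 to -1.41. Within slide 3 it was -4.42.

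On the other side, Cxcr3 read 0.86, 1.29, 1.16 and 0.64 in KO fat, against 0.48, 0.29 and 0.60 in WT fat. All KO arrays were above all WT scanner values, though the value-table column of WT fat 2 read 0.66, within the KO range. The difference was 0.53 ± 0.19 (SE; adjusted p = 0.576), 0.70 within slide 3, and 0.48 (adjusted p = 0.383) in the value table. Cxcl1 read -1.53, -1.69, -1.56 and -1.77 in KO fat and -2.42, -1.98 and -1.90 in WT fat, again without overlap, though the value-table column of WT fat 2 read -1.5, above every KO array. Its difference was 0.46 ± 0.17 (SE; adjusted p = 0.577), and 0.24 (adjusted p = 0.628) in the value table. Ccl24 read 2.36, 1.6, 1.56 and 1.92 in KO fat and 1.59, 0.70 and 1.13 in WT fat, where KO array 3 fell just under the highest WT array. Its difference was 0.72 ± 0.27 (SE; adjusted p = 0.589), and 0.61 (adjusted p = 0.43) in the value table. Xcr1, the receptor of cross-presenting dendritic cells for Xcl1, was above background on 3 of 4 KO fat arrays and on 0 of 3 WT fat arrays, at least 1.27-fold higher in KO (adjusted p = 0.594). Its measured means were -3.71 ± 0.77 in KO fat (SD, n = 4) and -4.83 ± 0.50 in WT fat (SD, n = 3). The measured difference of 1.12 became 0.35 in the value table and 0.49 with the mean of its probes. The value-table column of WT fat 2 read -2.44 for Xcr1, above all KO scanner values, but that column reads dim genes above the scanner scale. Ccl22, above background on no array, read -3.39 in it and -6.75 to -5.44 on the fat scanner arrays. WT fat 2 is therefore not shown to exceed the KO arrays in Xcr1.

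**Figure D3:**
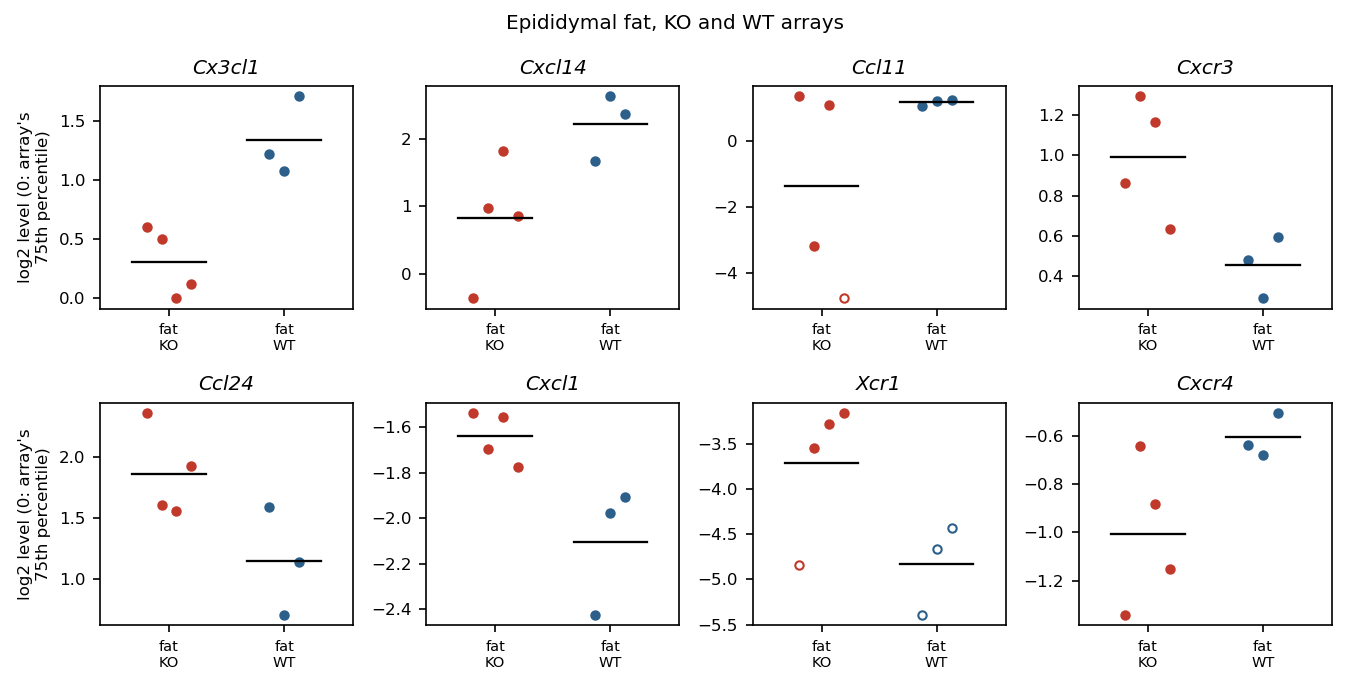
Levels in fat of the 8 genes named for KO against WT, as log2 signal relative to the array's 75th percentile, with KO arrays left of WT arrays and a line at each mean. Open symbols are values not well above background, and WT fat 2 is not drawn. Cx3cl1 lies lower in all 4 KO arrays, and Ccl11 splits the KO arrays into 2 near the WT level and 2 far below it.

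Ccl2 and Ccl7, ligands of the monocyte receptor Ccr2, spread widely among the KO arrays. Ccl2 read 2.07, 4.21, 4.58 and 4.34 in KO fat, against 3.04, 3.30 and 3.09 in WT fat, so that 3 KO arrays lay above and KO array 1 below every WT array. Its difference was 0.65 ± 0.58 (SE; adjusted p = 0.804). Ccl7 read 1.74, 3.27, 3.72 and 3.42 in KO fat and 2.39, 2.89 and 2.35 in WT fat, with the same array lowest. KO array 1 was also the lowest of the KO fat arrays in Cxcl9, Cxcl10, Ccl5 and Cxcl14. Cxcl13, the B cell ligand of Cxcr5, read 1.32, 2.81, 0.076 and -0.53 in KO fat and 0.32, -0.35 and 1.51 in WT fat, highest in KO array 2. The same array was highest in Cxcr5 (-0.31, others -1.94 to -1.15) and in the summed B cell markers (3.97; other KO arrays 2.51, 3.51 and 2.42; WT 2.35 to 3.0). Macrophage markers, 9 of 11 found being above background on every fat array of each genotype, summed to 7.21 to 8.85 in KO fat and 8.81 to 9.34 in WT fat. Of 9 tested, 8 were lower in KO with 0 called, and the median was -0.57. The largest difference was that of Gpnmb, -4.08 ± 0.62 (SE; adjusted p = 0.319). Gpnmb was also lower in KO skin (-4.42, adjusted p = 0.0414) and KO liver (-5.46, adjusted p = 0.216). The medians of the macrophage list there were -0.34 and -0.088. Of 7 T cell markers tested in fat, 6 were higher in KO and 1 lower, with 0 called and a median of 0.56. Their log2 summed levels were 2.35 to 3.28 in KO fat and 2.06 to 2.45 in WT fat. Epididymal duct markers, of which Lcn8, Adam28 and Rnase10 were above background on no fat array, summed to -3.28 to 1.90 in KO fat and -1.34 to 5.51 in WT fat. The part of these cells in the chemokine values was not tested.

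In skin, the tissue whose damage the study's title names, again no gene passed. Limma called 0 of 28 genes, where it called 0.0148% of all 13497, and the value table gave 0. Before adjustment 1 of 28, Ccl4, had p below 0.05 (3.57%, against 7.88% of all genes). Groups did not overlap in 0 genes higher in KO (3.35% of all genes) and in 1 lower, Cxcl12 (8.16%). Differences were positive for 16 of 28, with a median of 0.073, against -0.10 for all genes. Ccl4, a ligand made by activated lymphocytes and myeloid cells, read 2.16, 1.58, -0.88 and -1.97 in KO skin, against -4.34, -2.0 and -1.85 in WT skin, where the first WT value was not above background. KO arrays 1 to 3 lay above and KO array 4 within the WT range. The difference was 2.95 ± 1.05 (SE; adjusted p = 0.555), 2.15 (adjusted p = 0.605) in the value table, and 2.15 to 3.68 when single arrays were left out. No slide held skin arrays of both genotypes, so no within-slide value can be given, and the same holds for liver.

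Cxcl12 read 3.41, 3.77, 3.85 and 3.85 in KO skin and 4.70, 4.19 and 3.91 in WT skin. All KO values were lower and the difference was -0.55 ± 0.24 (SE; adjusted p = 0.555). A second Cxcl12 probe gave 0.38 in the same comparison, so the probes disagree in sign, and their mean gave -0.088. Ccl5, a chemokine made by T cells, read -0.0038, 1.99, 1.07 and 1.38 in KO skin and 1.77, 1.92 and 1.74 in WT skin, with 1 KO array above all WT arrays and the other 3 below. Its difference of -0.70 ± 0.42 (SE; adjusted p = 0.555) became -0.33 without KO array 1 and 0.38 with the slide as a fixed block. Cxcr3 read -1.40, -1.29, -1.40 and -1.11 in KO skin and -0.94, -0.83 and -1.23 in WT skin (-0.30 ± 0.19 SE, adjusted p = 0.557), and this too changed sign with the slide as a fixed block, to 0.17. Cx3cl1 read 0.67, 0.96, 1.1 and 1.13 in KO skin and 1.75, 1.03 and 1.12 in WT skin, which differed by -0.34 ± 0.24 (SE; adjusted p = 0.567), a value that became 0.34 when all probes of the gene were averaged.

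Several skin values followed KO array 1. Of the skin arrays, KO array 1 and WT array 1 had the fewest probes well above background, 38.9% and 39.5%. The other skin arrays had 43.5% to 52.8%. The part of this in the values below was not tested. Cxcl13 read 0.18, -1.88, -1.68 and -2.68 in KO skin and -4.0, -1.71 and -3.56 in WT skin (1.58 ± 0.73 SE, adjusted p = 0.555). Cxcr6, the receptor of Cxcl16 on T cells, read 1.18, -0.36, -0.52 and -0.071 in KO skin and -1.6, -0.40 and -0.42 in WT skin (0.86 ± 0.47 SE, adjusted p = 0.555). Ccl8 read 6.47, 5.72, 5.62 and 5.72 in KO skin and 4.92, 5.50 and 5.86 in WT skin (0.46 ± 0.30 SE, adjusted p = 0.56). In each of these 3 genes KO array 1 was the highest of the 7 skin arrays and WT array 1 the lowest of the WT arrays. Without KO array 1 the differences of Cxcl13, Cxcr6 and Ccl8 were 1.01, 0.49 and 0.26. Without WT array 1 they were 1.12, 0.46 and 0.20, and without both 0.55, 0.089 and 0.0070. KO array 1 was also the 1 skin array above background for the neutrophil receptor Cxcr2 (0.13; other KO skin -5.04 to -3.55) and for the neutrophil ligand Cxcl5 (-1.66; other KO skin -5.32 to -3.52). It had the lowest Ccl27a of the skin arrays (4.11; other KO skin 5.44 to 5.74). A second Cxcr2 probe was above background on no skin array, KO array 1 included. It gave a KO minus WT difference of 0.26 in skin, against 1.40 for the probe used. Summed neutrophil markers stood at 10.42 on KO array 1, at 6.24, 5.91 and 4.41 on the other KO arrays and at 2.91 to 3.14 in WT skin. Ngp, Ltf, Camp and Mmp8 were above background on no skin array. The tested markers were S100a8, S100a9 and Retnlg, with KO minus WT of 3.08, 4.13 and 0.96 (adjusted p = 0.555, 0.519 and 0.563). The sum therefore describes those genes and not the whole list. Hair follicle markers, all 5 above background on every skin array, summed to 8.49 to 10.54 in KO skin and 5.00 to 7.18 in WT skin. Which cells these marker signals came from, and their part in the chemokine values, was not tested.

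In liver limma called 0 of 31 genes, where it called 0.0226% of all 13302, and the value table gave 0. Before adjustment 2 of 31 had p below 0.05 (6.45%, against 6.06% of all genes). Groups did not overlap in 0 genes higher in KO (4.8% of all genes) and in 2 lower (6.22%), which were Cx3cr1 and Ccl9. The medians were -0.0092 for the 31 genes and -0.0048 for all genes. Cx3cr1, the fractalkine receptor of monocytes and resident macrophages, read -1.64, -1.59 and -2.34 in KO liver, against -1.03, -0.88 and -1.09 in WT liver. The difference was -0.86 ± 0.23 (SE; adjusted p = 0.557), and leaving out single arrays gave -0.99 to -0.61, but the value table gave -0.46 (adjusted p = 0.754) and normexp -0.27. Ccl9 read 3.47, 3.67 and 3.21 in KO liver and 3.97, 4.0 and 4.06 in WT liver, where the WT arrays were nearly equal (-0.56 ± 0.16 SE, adjusted p = 0.618). The ligand Cx3cl1 read -0.21, -0.41 and -0.96 in KO liver and 0.30, 0.053 and -0.30 in WT liver, with overlap of the groups (-0.54 ± 0.25 SE, adjusted p = 0.871). Cxcl5, a neutrophil ligand of Cxcr2, read -3.13, -3.43 and -4.68 in KO liver, above background on 1 array, and -2.66, -2.91 and -3.18 in WT liver (-0.83 ± 0.40 SE, adjusted p = 0.878). Without KO array 3 the differences were -0.33 for Cx3cl1 and -0.37 for Cxcl5.

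The genes with positive differences in liver were led by Cxcl13, at -0.89, 1.77 and -1.70 in KO liver and -1.22, -3.57 and -2.13 in WT liver (2.03 ± 0.96 SE, adjusted p = 0.874), where KO array 2 was highest. Cxcr5 followed at -2.16, -2.09 and -2.46 in KO and -2.30, -2.57 and -2.71 in WT (0.29 ± 0.18 SE, adjusted p = 0.976). Ccl4 read 1.15, 2.0 and 0.49 in KO and 0.43, 1.34 and 0.63 in WT (0.41 ± 0.41 SE, adjusted p = 1). Ccl6 read 3.67, 4.56 and 3.49 in KO and 3.78, 3.84 and 3.16 in WT (0.31 ± 0.33 SE, adjusted p = 1). KO array 2 was highest in all 4 genes, and without it Cxcl13 was 1.01, Ccl4 0.017 and Ccl6 -0.019. Ccl6 was 0.093 without WT array 3. Skeletal muscle markers summed to 3.78 and 2.45 on KO liver arrays 1 and 2 and to 3.41 on WT liver array 3, against -1.01 on KO array 3 and 1.59 and -1.34 on WT arrays 1 and 2. Keratinocyte markers, with Krt1 and Flg above background on no liver array, were high on KO array 2 (5.48) and WT array 3 (4.95). They summed to 3.52 on KO array 1, against 1.61 on KO array 3 and 1.05 and 1.12 on WT arrays 1 and 2. Without the 3 muscle-high arrays Cxcr5, Ccl4 and Ccl6 became -0.027, -0.40 and -0.32, with 1 KO array left against 2 WT arrays.

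**Figure D4:**
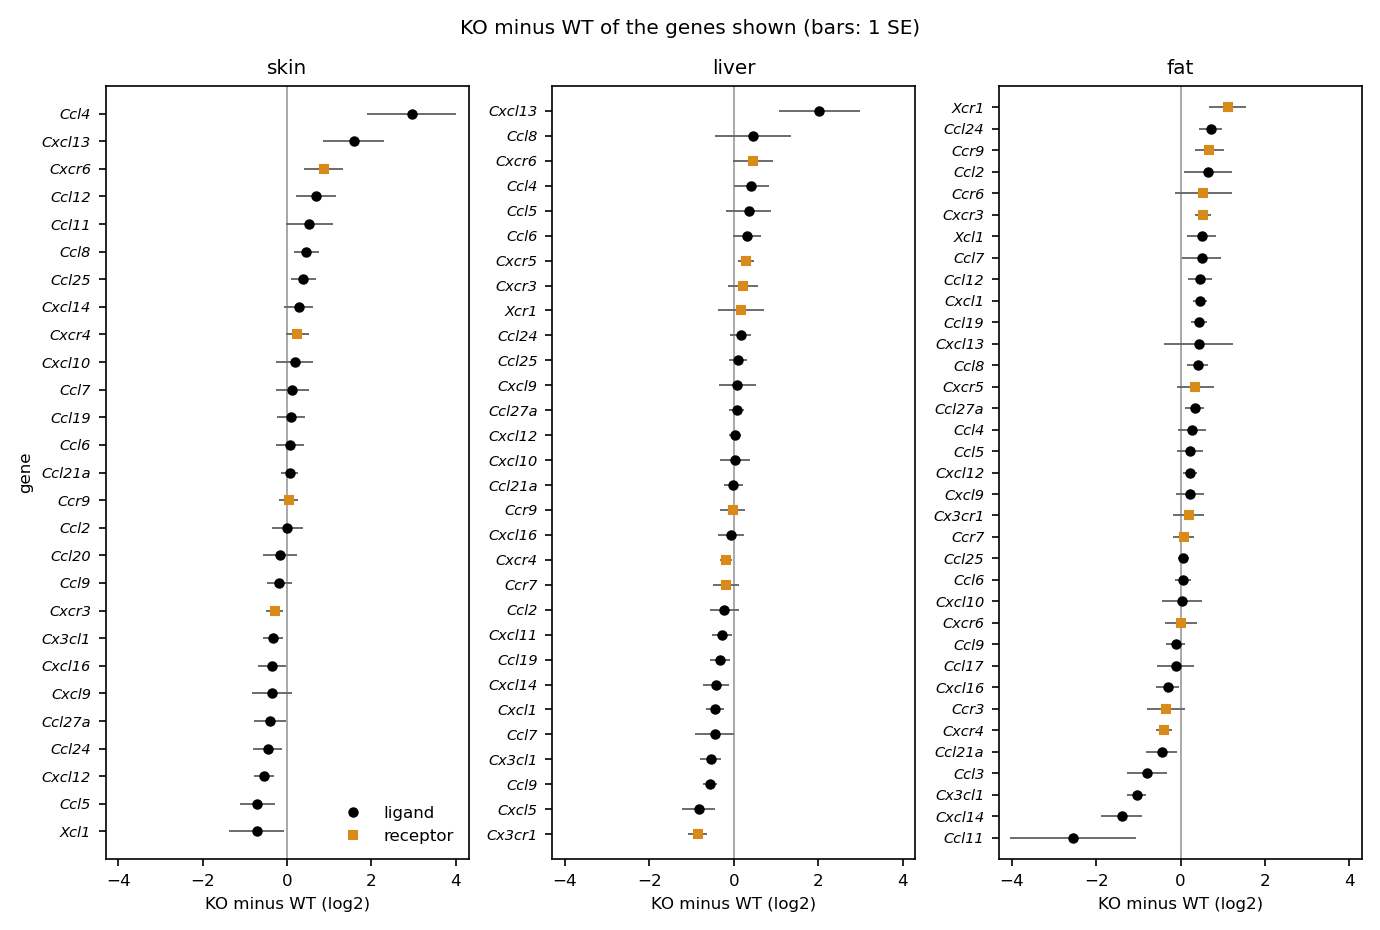
KO minus WT differences with their standard errors for tested chemokine and receptor genes in skin, liver and fat, in log2 units of signal relative to the array's 75th percentile. No adjusted p lies below 0.05, and the fat difference of Cx3cl1, -1.03 ± 0.22, is the one farthest from 0 in units of its error.

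Whether the KO effect itself differed between tissues was tested in 1 fit of all groups. Limma called 0 of 37 genes for skin minus fat (0.423% of all genes), 0 of 35 for skin minus liver (0.162%) and 0 of 38 for liver minus fat (0.0564%). Before adjustment 5, 2 and 0 had p below 0.05, against 11.9%, 7.84% and 4.68% of all genes. For skin minus fat the 5 were Cxcl12 at -0.78 ± 0.26 (SE; adjusted p = 0.295), Cxcl14 at 1.67 ± 0.60 (SE; adjusted p = 0.325), Ccl24 at -1.18 ± 0.45 (SE; adjusted p = 0.344), Ccl4 at 2.67 ± 1.13 (SE; adjusted p = 0.394) and Cxcr3 at -0.83 ± 0.36 (SE; adjusted p = 0.406). The second Cxcl12 probe, above background on every skin and fat array, gave 1.01 for the same difference, so its sign depends on the probe. Cxcl14, for example, had KO minus WT values of 0.28 in skin and -1.39 in fat, and Cxcr3 values of -0.30 and 0.53. The brighter Cx3cl1 probe was lower in KO in each tissue's mean, at -0.34 in skin, -0.54 in liver and -1.03 in fat, although no tissue passed.

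The genes whose promoter window held AP-1 letters were Ccl27a, Ccl9, Cxcl10, Ccr3 and Ccr4. Their KO minus WT differences lay on both sides of 0: Ccl27a had -0.40 in skin, 0.074 in liver and 0.34 in fat, Ccl9 -0.18, -0.56 and -0.11, and Cxcl10 0.18, 0.027 and 0.036 in the same order. Ccr3, the eosinophil receptor, was tested in fat alone (-0.34), and Ccr4, the receptor of Ccl17 and Ccl22, in no tissue. No searched letters were found in the Cx3cl1 window, and the genes Ccl2, Ccl4, Ccl5, Ccl7 and Ccl11 have no entry in the promoter table used here.

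Around the ligands and receptors, a list of 56 genes for scavenger receptors, platelet chemokines, signalling, integrins, chemokine-cleaving proteases and NF-kB and interferon factors was followed, of which 53 were on the array. Limma called 0 of 46 in skin, 0 of 48 in liver and 0 of 53 in fat between KO and WT. Before adjustment 7, 1 and 9 had p below 0.05, or 15.2%, 2.08% and 17%, beside the shares of all genes given above. Medians of KO minus WT were -0.24, -0.0054 and -0.055, against -0.10, -0.0048 and 0.076 over all genes. In fat the smallest p belonged to Mmp12, a macrophage protease that cleaves chemokines, at -2.13 ± 0.44 (SE; adjusted p = 0.423), followed by the integrin chain Itgam at -1.33 ± 0.32 (SE; adjusted p = 0.49). Ppbp, a platelet ligand of Cxcr2, had 0.95 ± 0.26 (SE; adjusted p = 0.504), and Itgb2, which pairs with Itgam on myeloid cells, -1.1 ± 0.30 (SE; adjusted p = 0.505). The macrophage marker sums of fat, given above with the difference of Gpnmb, overlapped narrowly, with the highest KO array at 8.85 and the lowest WT array at 8.81. The mean log2 level of the same list, Gpnmb included, did not overlap. It was 1.65 to 2.75 in KO fat and 3.01 to 3.31 in WT fat. The part of the macrophage markers in these values was not tested. In skin Was and Relb had -0.51 ± 0.19 (SE; adjusted p = 0.555) and -0.65 ± 0.24 (SE; adjusted p = 0.555), and in liver the receptor kinase Grk5 had 0.75 ± 0.19 (SE; adjusted p = 0.533). Between WT tissues the list had 9 genes higher and 28 lower in skin than in fat of 53 tested. These were 17% and 52.8% of the list, against 26.6% and 30.8% of all genes. Of 49 tested, 18 were higher and 11 lower in skin than in liver (36.7% and 22.4%, against 29.5% and 34.5% of all genes). Of 53 tested, 6 were higher and 31 lower in liver than in fat (11.3% and 58.5%, against 30% and 31.3% of all genes).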

How the data were processed

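Single-colour Agilent arrays (0.2 ug RNA, Cy3) of 21 samples were read with Feature Extraction 10.7.3.1, per the file headers; probe positions are on mm9, per the file headers. The deposited scanner intensity (processed signal, background-subtracted by the authors' scanner software) was taken as log2 minus the array's 75th percentile, after outlier-flagged spots and control spots were left out; the deposited flags gave which probes were well above background. The authors' deposited value table, log2 with its scale and centring not stated, served as an alternative. The probe with the highest mean stood for each gene name. Limma 3.58.1 in R 4.3.3 (lmFit, eBayes, two-sided) was run within each tissue for KO minus WT and over 6 groups for tissue contrasts, with Benjamini-Hochberg adjustment over all gene names tested and a threshold of 0.05; code was tested on simulated data. Genes named in full were the 4 per direction with the smallest p per KO comparison and the 5 per direction per WT tissue contrast, with others named by role or because they bear on these. The members, lists and the exclusion of WT fat 2 were chosen with earlier results of these data known. Same-numbered arrays of different groups correlated at -0.23 to 0.24 in their deviations from group means, so numbers were not taken as pairs. Arrays sat on 6 slides, and those of 1 slide had a consensus correlation of 0.031. Alternatives were normexp background correction, quantile and median scaling, the value table, filters on dim probes, the mean of a gene's probes, slide and replicate blocks, and leaving out arrays. One gene is not reported here. Exons and UTRs under the probes were not analysed here. The number of arrays limits the precision.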

Additional observations from a re-analysis of the deposited data

Results flagged for a closer look

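In groups of 4 arrays, 5 of 64 gene and group combinations had a single array farther from the others than Dixon's 95% limit allows, where chance gives about 1 in 20. Skin KO array 1 gave 3 of them: Ccl8 at 6.47 with the other KO skin arrays at 5.62 to 5.72, Ccr9 at -1.74 with the others at -2.37 to -2.29, and Xcl1, the ligand of Xcr1, at -4.25 with the others at -1.64 to -1.55. In KO fat, Ccl2 was low on array 1 (2.07; others 4.21 to 4.58). Ccl3 was low on KO fat array 4 (-4.62; others -2.94 to -2.79).

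The scanner file of WT fat 2, which entered no test, held 5 genes that were well above background there and over 2 log2 units above the highest other WT fat array. Another 16 genes exceeded it by as much without being well above background. Ccl27a read 5.84 there (other WT fat -0.30 to 0.31), Cxcl14 5.53 (1.67 to 2.62), Ccr3 2.02 (-2.59 to -2.05), Ccr8 1.37 (-5.79 to -5.20) and Cx3cr1 0.13 (-2.67 to -2.25). The Ccl27a and Cxcl14 values lie near or above those of WT skin (5.42 to 5.80 and 4.15 to 5.20).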

How the results depend on the processing

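The KO counts stayed at 0 under all alternatives run (19 in skin, 18 in liver, 20 in fat), the replicate block included (0 in each tissue), as did the difference of KO effects (31). Tissue counts moved within 20 to 33, 21 to 27 and 22 to 28 for WT skin minus fat, skin minus liver and liver minus fat, and 18 to 33, 19 to 26 and 21 to 26 for KO; leaving out single arrays gave 22 to 23, 22 to 25 and 22 to 24 in WT and 21 to 24, 24 to 25 and 21 to 24 in KO. The replicate block gave 25, 26 and 27 calls in WT and 23, 26 and 25 in KO. With normexp the split of higher and lower calls was 8 and 12 for WT skin minus fat (7 and 17 otherwise), 12 and 9 for WT skin minus liver (12 and 14), 9 and 11 for KO skin minus fat (5 and 18), 12 and 7 for KO skin minus liver (14 and 12) and 11 and 13 for KO liver minus fat (8 and 17). It also moved the median of all genes to 0.12 for WT skin minus fat and 0.15 for liver minus fat.

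Single genes that changed sign were, in skin KO minus WT, Ccl5 (0.38) and Cxcr3 (0.17) with slide as a fixed block and Cx3cl1 (0.34) with the mean of all probes; in liver, Cxcr5 (-0.027), Ccl4 (-0.40) and Ccl6 (-0.32) without the 3 arrays high in muscle genes, and Ccl6 (-0.019) without KO replicate 2, its range without single arrays being -0.019 to 0.52; and in WT skin minus fat, Ccr7 (0.0092) with normexp, which also turned Cx3cr1 (0.22) and, in liver minus fat, Ccl17 (0.0080). The cause was not tested. Probes near background limit all of these dim genes.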
